A study of Mus musculus with 7 samples.

Results

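Astrocyte transcripts were followed in RNA aspirated from single recorded neurons of the mouse medial preoptic area (MPA), a hypothalamic region involved in the control of body temperature. The 10 transcripts, Gfap, Aqp4, Aldh1l1, Slc1a2, Slc1a3, Aldoc, Gja1, S100b, Glul and Sox9, were chosen by gene symbol as established astrocyte genes, and all 10 were found among the 24062 symbols counted and among the 14407 genes tested. The samples came from adult mice, described as female, of the Esr1-ZsGreen strain, in which green fluorescence marks cells that express the estrogen receptor gene Esr1. Brain slices were warmed by 5 °C during whole-cell recording, and the contents of 2 ZsGreen positive neurons with similar responses were drawn into the patch pipette and pooled as 1 sample. There were 4 temperature-responsive (TR) and 3 non-responsive (NR) samples. Both groups shared the strain, the fluorescence, the warming and the aspiration, and differed by the labelled response. The study combined neurons of the medial preoptic nucleus with those of the rostral MPA. The sample titles do not give the subregion, so it may also differ between groups. Whether the 2 neurons of a sample, or different samples, came from the same mouse is not given in the sources used here. The study gives fewer mice for the reporter cells it imaged than there are samples here, without tying them to these samples, so some samples may share a mouse. The p-values therefore measure the spread between these samples, which may be partly technical.

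Astrocytes are the glial cells that surround synapses and cover blood vessels with their endfeet. They clear glutamate from the synaptic cleft by sodium-dependent transporters, convert it to glutamine, buffer potassium and water, and form networks through gap junctions. Mature neurons express most of these genes weakly or not at all, although transcripts such as Slc1a2 and Glul are also known at lower levels in other neural cells. Because each sample was an aspirate through slice tissue, transcripts of neighbouring cells can enter the pipette. In such pooled material fewer astrocyte fragments and less RNA per fragment cannot be told apart.

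Total counts ranged from 1914497 to 2814360 in TR and from 3309361 to 5125280 in NR samples, and genes with at least 1 count from 19852 to 21177 in TR and from 17818 to 19820 in NR samples. The groups therefore did not overlap in depth or in genes detected, and neither can be told apart from the response. A count of 3, taken as a detection floor, corresponded to between 0.585 and 1.57 CPM (counts scaled so that all samples have the same total), which covers counting error only. Esr1 itself had between 10 and 27 counts per sample (3.71 to 10.97 CPM). Although the study used only females for slice recordings, all 7 samples held 684 to 1150 counts of the Y-linked gene Ddx3y and only 2 to 14 counts of Xist, which female cells transcribe from their silenced X. This disagreement concerns every sample, so no result could be given without the samples it touches.

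All 10 astrocyte transcripts lay far above the floor in every sample. The lowest value of any of them was 39.5 CPM, for Aldh1l1 in TR sample 3, and the highest was 752 CPM, for Slc1a2 in NR sample 1. Counts were compared between TR and NR samples by edgeR's quasi-likelihood test with TMM normalization, a scaling by the trimmed mean of ratios between samples. Of the 10, 4 were higher in TR (Gja1, Slc1a3, S100b and Glul), 1 was lower (Gfap) and 5 did not pass the threshold of 0.05 on the Benjamini-Hochberg adjusted p. Over all genes tested, 30.0% were called in either direction, 15.1% as higher and 14.9% as lower in TR. The median log2 fold change of the 10 was 0.22, against 0.007 over all genes tested. The 2 groups did not overlap in CPM for 3 of the 10 (Gja1, Slc1a3 and Gfap), whereas 35.9% of all genes tested had groups that did not overlap. With only 10 transcripts, this is given as a count and not as a property of astrocyte genes. The choice of test and normalization moved the number called among the 10 little, to between 4 and 6. However, none of the 10 was called once genes detected per sample entered the model (2 had an unadjusted p under 0.05, Gfap and Gja1), and 3 were called with a correction for GC content.

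**Figure D1:**
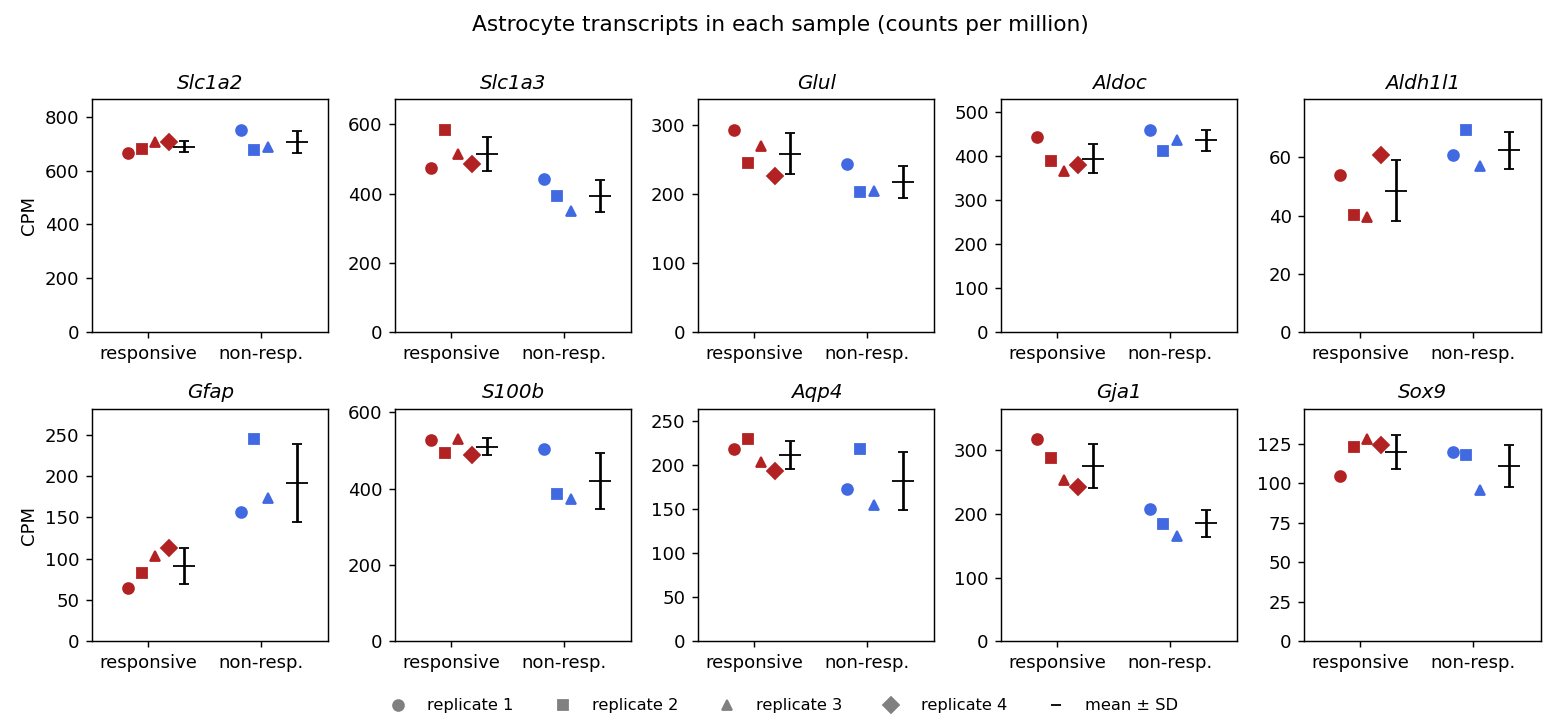
CPM, scaled to each sample's total, of each of the 10 astrocyte transcripts in the 4 TR samples (red) and 3 NR samples (blue), with symbols for the sample number and bars for mean ± SD. All TR samples lie above all NR samples for Slc1a3 and Gja1 and below them for Gfap, and the groups overlap for the other 7.

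The sequences just upstream of the RefSeq start are shown for the 3 transcripts whose groups did not overlap, since these are the genes on which the comparison turns. Each line gives 120 bases ending at the base before the start, from RefSeq on GRCm38.p6, printed 5′ to 3′ on the gene's strand, with matches to the motifs searched in capitals. The RefSeq start of Gfap lies 3712 bases inside the GENCODE gene whose coordinates are given further on, so its stretch is upstream of this start only, whereas the starts of Slc1a3 and Gja1 lie 43 and 30 bases outside their GENCODE genes.
Gfap, chr11:102897201-102897320, minus strand: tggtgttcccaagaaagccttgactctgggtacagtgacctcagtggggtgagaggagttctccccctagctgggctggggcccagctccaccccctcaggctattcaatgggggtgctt
Slc1a3, chr15:8710808-8710927, minus strand: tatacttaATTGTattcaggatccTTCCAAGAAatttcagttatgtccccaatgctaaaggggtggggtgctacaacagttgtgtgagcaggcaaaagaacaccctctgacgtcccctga
Gja1, chr10:56377180-56377299, plus strand: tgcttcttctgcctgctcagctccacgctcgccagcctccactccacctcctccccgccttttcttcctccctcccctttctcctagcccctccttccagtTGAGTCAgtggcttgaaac
The motifs searched on both strands were those of AP-1 (TGANTCA), STAT factors (TTCNNNGAA), NFI factors (TTGGC) and SOX factors (ACAAT). Gja1 held TGAGTCA, a match to the AP-1 letters, 19 bases upstream of its start. Slc1a3 held TTCCAAGAA, a match to the STAT letters, and ATTGT, the reverse complement of the SOX letters, 96 and 112 bases upstream, and these matches did not overlap. Gfap held none of the 4 in the stretch printed. Over the 250 bases upstream of 32851 RefSeq starts, the AP-1 letters were present in 6.75%, the STAT letters in 7.02%, the NFI letters in 41.5% and the SOX letters in 27.7%. A match describes letters only and says nothing of binding.

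Glutamate uptake and recycling are carried by Slc1a2, Slc1a3 and Glul. Slc1a2 (chr2:102658659-102790784) encodes GLT-1, the main glutamate transporter of forebrain astrocytes, and was the member with the highest CPM. It measured 666, 679.6, 705 and 705 CPM in TR samples 1 to 4 and 752, 677 and 687 CPM in NR samples 1 to 3. The ranges overlapped and the means were close, at 689 ± 19.6 (SD, n = 4) and 705 ± 40.6 CPM (SD, n = 3). The TMM-scaled log2 fold change, TR minus NR, was 0.026 ± 0.096 (SE) with an adjusted p of 0.866, and its sign turned under several other settings, so no direction is given for it.

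Slc1a3 (chr15:8634124-8710764) encodes GLAST, the second astrocyte glutamate transporter, which prevails in cerebellum, radial glia and around the ventricles. It measured 475, 584, 515 and 485 CPM in TR and 442, 392.0 and 349 CPM in NR samples. Every TR sample exceeded every NR sample, with means of 515 ± 49.2 (SD, n = 4) and 394 ± 46.2 CPM (SD, n = 3). Slc1a3 was higher in TR, with a log2 fold change of 0.45 ± 0.11 (SE) and an adjusted p of 0.00342 in edgeR.

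The order of the 2 transporters differed between groups when levels were divided by exon length. The ratio of Slc1a3 to Slc1a2, in CPM per kb of exon, was 1.10, 1.32, 1.12 and 1.06 in TR samples and 0.903, 0.891 and 0.782 in NR samples. On this scale Slc1a3 was the higher of the 2 in all TR samples and the lower in all NR samples. In CPM Slc1a2 was the higher in all 7 samples, at 1.16 to 1.45 times Slc1a3 in TR and 1.70 to 1.97 times in NR samples. The ratio thus shifted between groups, while the order depends on the exon length, which joins all annotated exons of a gene.

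Glul (chr1:153899944-153909723) encodes glutamine synthetase, which turns glutamate and ammonia into glutamine and is a classical astrocyte enzyme. It measured 294, 245, 271 and 226 CPM in TR and 245, 203 and 205 CPM in NR samples. TR sample 4 lay below NR sample 1, so the groups overlapped. Glul was higher in TR, with means of 259 ± 29.6 (SD, n = 4) and 218 ± 23.2 CPM (SD, n = 3), a log2 fold change of 0.31 ± 0.11 (SE) and an adjusted p of 0.0328 in edgeR. This call was lost in 9 of 19 alternatives, with adjusted p of 0.0524 without TMM scaling, 0.0888 with a GC content offset, and 0.107, 0.0542, 0.0686, 0.155 and 0.141 without TR samples 1, 2 and 3 and NR samples 2 and 3, respectively. Of its exonic bases, 3.5% are shared with Teddm2 or Mir8114.

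Aldoc and Aldh1l1 are metabolic enzymes widely used as pan-astrocyte markers. Aldoc (chr11:78322968-78327781) encodes aldolase C, the brain form of this glycolytic enzyme. It measured 443, 388, 367 and 379.8 CPM in TR and 459.6, 412 and 437 CPM in NR samples. Only TR sample 1 reached into the NR range. The log2 fold change of Aldoc was -0.084 ± 0.10 (SE), with an adjusted p of 0.56 in edgeR.

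Aldh1l1 (chr6:90486427-90600203) encodes a folate-metabolizing dehydrogenase and was the member with the lowest level, also per kb. It measured 53.9, 40.2, 39.5 and 60.8 CPM in TR and 60.7, 69.5 and 56.9 CPM in NR samples. TR sample 4 lay within the NR range and the other 3 TR samples lay below it. The log2 fold change of Aldh1l1 was -0.30 ± 0.15 (SE) with an adjusted p of 0.138, and it passed the threshold only where all genes with at least 1 count were tested (adjusted p = 0.038, edgeR). Aldh1l1 shares 13.4% of its exonic bases with Gm45901 and the antisense gene Gm15756, so reads there may be assigned differently.

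Gfap (chr11:102887336-102900912) encodes the intermediate filament protein of astrocytes, which is abundant in fibrous and reactive astrocytes and low in many protoplasmic ones. It varied most of the 10. It measured 64.5, 82.5, 103 and 113 CPM in TR and 156, 245 and 174 CPM in NR samples, from between 146 and 1254 counts. The highest TR sample lay below the lowest NR sample, and the mean was 90.7 ± 21.6 CPM in TR (SD, n = 4) against 192 ± 46.8 CPM in NR (SD, n = 3), 2.02-fold higher in NR after TMM scaling. Gfap fell by 1.01 ± 0.16 (SE) on the log2 scale in TR, with an adjusted p of 0.000365 in edgeR, and the change lay between -1.13 and -0.81 when any sample was left out.

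S100b (chr10:76253853-76261159) encodes a small calcium-binding protein that astrocytes express and secrete and that some mature oligodendrocytes also express. It measured 529, 494, 530.2 and 489.6 CPM in TR and 504, 385 and 372 CPM in NR samples. NR sample 1 lay within the TR range, while the other 2 NR samples lay well below it. S100b was higher in TR, with means of 511 ± 21.9 (SD, n = 4) and 420.4 ± 72.9 CPM (SD, n = 3), a log2 fold change of 0.34 ± 0.11 (SE) and an adjusted p of 0.0215 in edgeR. The call was lost without NR sample 2 or NR sample 3 (adjusted p = 0.137 and 0.165) and with a GC content offset (0.0641). Per kb of exon S100b was the highest of the 10, at 344 CPM per kb in TR and 283 CPM per kb in NR.

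Aqp4 and Gja1 belong to astrocyte endfeet and networks. Aqp4, on chromosome 18, encodes the water channel of perivascular endfeet. It measured 219, 229, 203 and 193 CPM in TR and 172, 218 and 154 CPM in NR samples. NR sample 2 lay within the TR range and the other 2 NR samples below it. The log2 fold change of Aqp4 was 0.28 ± 0.11 (SE) with an adjusted p of 0.0621. It passed the threshold in 6 of 19 alternatives, among them upper quartile scaling and the fits without TR sample 4 or NR sample 2 (adjusted p = 0.0253, 0.0377 and 0.0174, edgeR), and fell to 0.036 on the log2 scale with a GC content offset (adjusted p = 0.834).

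Gja1 (chr10:56377330-56402513) encodes connexin 43, the main gap junction protein of astrocytes. It measured 318, 287, 254 and 242 CPM in TR and 208, 183 and 166 CPM in NR samples. All TR samples exceeded all NR samples in CPM, and Gja1 had the largest rise of the 10, with means of 275 ± 34.0 (SD, n = 4) and 186 ± 21.2 CPM (SD, n = 3). The raw counts of Gja1 overlapped, at 550 to 719 in TR and 687 to 940 in the deeper NR samples. Its log2 fold change was 0.63 ± 0.11 (SE) with an adjusted p of 0.000452 in edgeR, and it lay between 0.53 and 0.73 when any sample was left out.

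Sox9 (chr11:112782224-112787760) encodes a transcription factor that is largely restricted to astrocytes in the adult brain outside the neurogenic niches. It measured 104, 123, 128 and 124 CPM in TR and 119, 118 and 95.8 CPM in NR samples. The ranges overlapped from both sides, with the lowest TR sample below 2 of the 3 NR samples. The log2 fold change of Sox9 was 0.17 ± 0.11 (SE), with an adjusted p of 0.238 in edgeR.

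**Figure D2:**
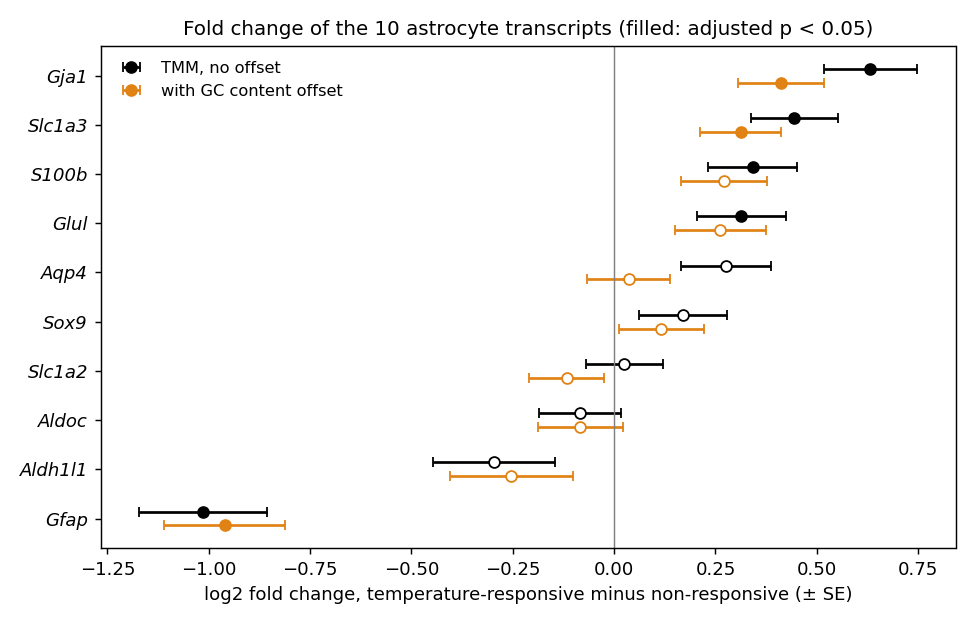
Log2 fold change, TR minus NR, of the 10 transcripts with SE, as fitted by edgeR with TMM (black) and with a GC content offset added (orange); filled symbols have an adjusted p under 0.05. Gfap, Slc1a3 and Gja1 are filled in both fits, S100b and Glul in the fit without the offset.

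Ordered by level per kb of exon, the mean of the TR samples ran from S100b through Aldoc (121 CPM per kb), Glul (77.9), Slc1a3 (60.3), Slc1a2 (52.5), Aqp4 (33.9), Sox9 (29.0), Gja1 (26.8) and Gfap (21.5) to Aldh1l1 (10.8). In NR samples Slc1a2 (53.7) preceded Slc1a3 (46.2) and Gfap (45.4) stood just after them, ahead of Aqp4 (29.1), Sox9 (26.9) and Gja1 (18.1). Neighbours whose samples overlapped in this order were Glul and Slc1a3, Sox9 and Gja1, and Gja1 and Gfap in TR, and Slc1a2 and Slc1a3, Slc1a3 and Gfap, and Aqp4 and Sox9 in NR. Even Aldh1l1 lay above 63.5% of the tested genes with a known exon length, and S100b above 99.96% of them.

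GC content was related to the fold change over all genes. When the 13745 tested genes with a known GC content were split into 5 equal bins, the median log2 fold change fell from 0.26 in the bin of lowest GC through 0.094, -0.040 and -0.13 to -0.24 in the highest. The 10 astrocyte transcripts followed this order in part. Gja1 and Aqp4, at 42.2% and 41.4% GC in the longest transcript, had positive changes, and Aldoc, Aldh1l1 and Gfap, at 51.9%, 54.4% and 55.5%, had negative ones. Between them the order was broken, since Slc1a2, at 45.3% GC and a change of 0.026, lay below S100b, Glul and Sox9, which have more GC, and Slc1a3, at 45.7% GC, lay above Aqp4. With a smooth GC offset in the fit Gfap remained at -0.96 (adjusted p = 0.000442), Gja1 at 0.41 (adjusted p = 0.00668) and Slc1a3 at 0.31 (adjusted p = 0.0228, edgeR), while S100b and Glul no longer passed.

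**Figure D3:**
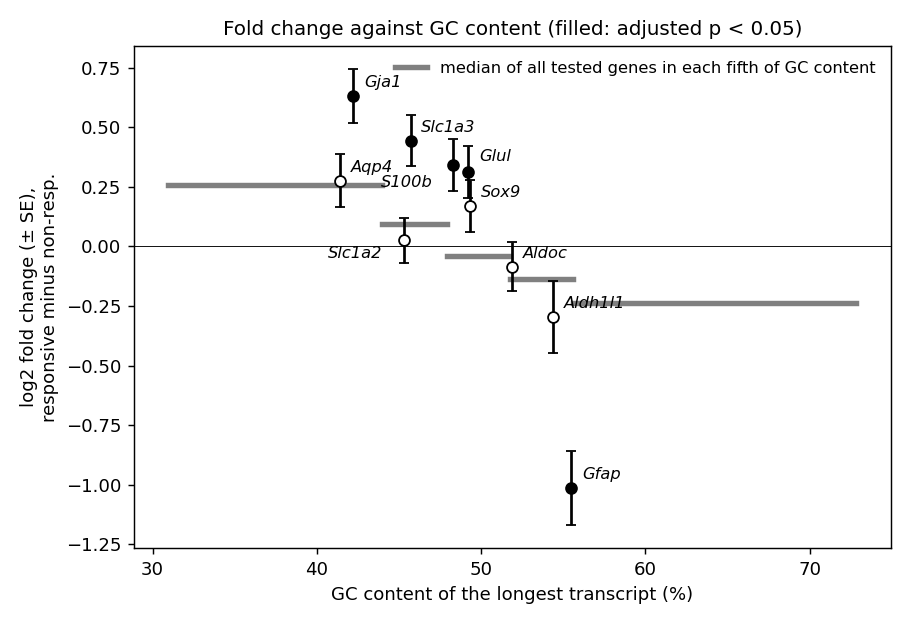
Log2 fold change, TR minus NR, with SE (vertical axis) against the GC content of the longest transcript (horizontal axis) for the 10 transcripts; filled symbols have an adjusted p under 0.05, and grey bars mark the median of all tested genes in each of the 5 GC bins. Gfap lies far below the bar of its bin, at -1.01 against -0.13, and Gja1 above its own, at 0.63 against 0.26.

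The sum of the 10 transcripts was 3164, 3152, 3114 and 3020.0 CPM in TR and 3118, 2902 and 2697 CPM in NR samples, with means of 3112 ± 65.4 (SD, n = 4) and 2906 ± 211 CPM (SD, n = 3). NR sample 1 lay within the TR range. The highest sample exceeded the lowest by a factor of 1.17, which was above the factor of 1.13 for Slc1a2, its largest part, and below those of the other 9, from 1.25 for Aldoc to 3.80 for Gfap. Together the 10 transcripts made up between 0.270% and 0.316% of all counts in each sample.

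The composition of the sum was as follows. Gfap made up 2.04% to 3.74% of the sum in TR and 5.01% to 8.43% in NR samples. Gja1 made up 8.03% to 10.04% in TR and 6.14% to 6.66% in NR samples, and Slc1a3 15.0% to 18.5% against 13.0% to 14.2%. Aldoc went the other way, with 11.8% to 13.99% in TR and 14.2% to 16.2% in NR samples. Ratios between 2 members do not depend on the scaling of a sample. Of the 45 possible ratios, 24 had groups that did not overlap, among them 8 of the 9 ratios with Gfap. This was 53.3% of the ratios, against 30.1% of those between any 2 of the 14315 tested genes with a count in every sample. Many of those genes have lower levels than the members, and lower counts make ratios noisier. The 2 shares were not matched for level or GC content. Ratios that share a gene are not independent. The ratio of Gfap to Gja1, in CPM, ran from 0.203 to 0.466 in TR and from 0.753 to 1.33 in NR samples and varied most over the 7 samples, by a factor of 6.57. The ratio of S100b to Glul was the most constant, from 1.80 to 2.17 with a factor of 1.20.

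The 10 transcripts did not rise and fall together from sample to sample within a group. Over the 9 within-group sample pairs, which share samples, and the 45 pairs of members, both members differed in the same direction in 50.9% of cases, against 50.8% over all pairs of tested genes. The share was 45.2% among TR samples (51.0% over all genes) and 62.2% among NR samples (50.3% over all genes). In each pair of TR samples, 5 or 6 of the 10 transcripts were higher in the same sample and the others lower. NR sample 1 exceeded NR sample 3 for 9 of the 10, all but Gfap, and NR sample 3 was the lowest of all 7 samples for 5 of them. No pair of members agreed in more than 7 of the 9 comparisons.

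Gja1 agreed in 7 of 9 comparisons with each of Aqp4, Aldoc, S100b and Glul, and Sox9 agreed in 7 of 9 with both glutamate transporters. Gfap agreed in only 1 of 9 with Aldoc, Gja1 and Glul, and in 37.0% of all its comparisons with other members. By the same share, S100b, Slc1a3 and Gja1 were the most like the others, at 56.8% each.

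**Figure D4:**
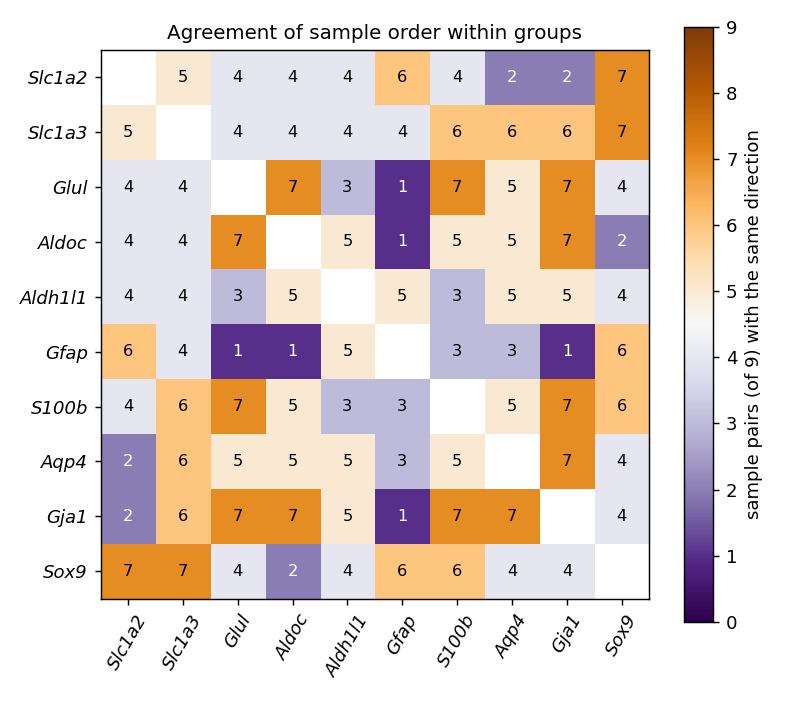
For every 2 of the 10 transcripts, the number of the 9 within-group sample pairs in which both differ in the same direction (colour and printed number). Gja1 shares 7 of 9 with Glul, Aldoc, S100b and Aqp4, and Gfap shares 1 of 9 with Glul, Aldoc and Gja1.

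A further 60 astrocyte genes in 6 functional lists of 10 were examined in the same fit, of which 58 were tested. Over all genes tested, 15.1% were called higher and 14.9% lower in TR, and the counts of each list below stand beside these shares. Of the 58, 14 were higher and 11 lower in TR and 33 did not pass, a share called of 43.1% against 30.0% of all genes, with a median log2 fold change of 0.12. The balance of directions depended on the scaling, the filter and the block. It was 11 higher and 15 lower without TMM scaling or with all genes of at least 1 count tested, 16 higher and 8 lower with upper quartile scaling, and 19 higher and 8 lower with the replicate number as a block.

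Of the endfoot and membrane genes, none was higher and 1 of 10 was lower, with a median log2 fold change of -0.078. The sodium bicarbonate cotransporter Slc4a4, an abundant gene of this list, measured 246 to 295 CPM in TR and 227 to 239 CPM in NR samples and did not pass (adjusted p = 0.0634, edgeR).

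Of the genes of amino acid handling, 2 were higher and 3 lower among 10. Glud1, the mitochondrial glutamate dehydrogenase, measured 333 to 351 CPM in TR and 269 to 326 CPM in NR samples and was higher in TR, by 0.27 on the log2 scale (adjusted p = 0.0378, edgeR). This call was lost in 10 of 19 alternatives, including those without TR samples 1, 2 or 3 or NR samples 2 or 3 (adjusted p = 0.051, 0.0933, 0.0661, 0.138 and 0.214). Slc6a11, the astrocyte GABA transporter GAT-3, measured 68.1 to 84.4 CPM in TR and 78.8 to 80.4 CPM in NR samples and did not pass (adjusted p = 0.682).

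Of the genes of secreted and lipid-handling proteins, 2 were higher and 1 lower among 10, with Plpp3 counted under its older symbol Ppap2b. Cst3, which encodes the protease inhibitor cystatin C and is expressed by several glial types, measured 412 to 587 CPM in TR and 243 to 367 CPM in NR samples and was higher in TR by 0.82 on the log2 scale (adjusted p = 0.00136, edgeR). Its raw counts were nearly flat, at 1123 to 1186 in TR and 1215 to 1247 in NR samples, whose totals were larger. Whether its counts level off with depth was not tested. Apoe, the main lipid carrier made by astrocytes, was also higher in TR, with 532 to 576 CPM against 375 to 529 CPM, a log2 fold change of 0.42 and an adjusted p of 0.00785, a call that did not pass without NR sample 2 or NR sample 3. Sparcl1, a secreted matrix protein also known as hevin, measured 617 to 777 CPM in TR and 606 to 655 CPM in NR samples and did not pass (adjusted p = 0.147).

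Of the transcription factors and receptors, 4 were higher and 3 lower among 10. Sox2, a factor of neural progenitors and adult astrocytes, and S1pr1, a receptor for sphingosine 1-phosphate, were higher in TR by 0.76 (adjusted p = 0.000259) and 0.75 (adjusted p = 0.00116) on the log2 scale in edgeR. Hes5, a target of Notch signalling, fell by 0.90 (adjusted p = 0.00416) and the neurotensin receptor Ntsr2 fell by 0.61 (adjusted p = 0.000666) on the same scale. Hes5 stood at 10.97 to 17.4 CPM in TR and 18.4 to 34.5 CPM in NR samples, and Ntsr2 at 76.3 to 109.7 against 144 to 177 CPM. The raw counts of Sox2 overlapped, at 228 to 302 in TR and 248 to 299 in the deeper NR samples. The orphan receptor Gpr37l1, the other abundant gene of the list, measured 144 to 216 CPM in TR and 143 to 156 CPM in NR samples and did not pass (adjusted p = 0.159).

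Of the genes of glycogen, metal and redox handling, 4 were higher and 2 lower among 10. Pygb, the brain form of glycogen phosphorylase, measured 63.7 to 80.4 CPM in TR and 121 to 147 CPM in NR samples and fell by 0.79 on the log2 scale in TR (adjusted p = 6.59e-05, edgeR). Prdx6, an antioxidant enzyme, measured 239 to 246 CPM in TR and 282 to 320.0 CPM in NR samples and fell by 0.25 (adjusted p = 0.0395), a call lost in 11 of 19 alternatives, including those without TR samples 2, 3 or 4 or NR samples 2 or 3 (adjusted p = 0.0776, 0.0974, 0.102, 0.177 and 0.0934). Ndrg2, a general astrocyte marker, measured 392.3 to 454 CPM in TR and 414 to 483 CPM in NR samples and did not pass (adjusted p = 0.987).

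Genes known to increase in reactive astrocytes were low throughout, with a list sum of 151 to 196 CPM in TR and 146 to 189 CPM in NR samples. Of the 8 tested, 2 were higher and 1 was lower. Osmr, the receptor of oncostatin M, measured 15.0, 26.6, 28.2 and 19.5 CPM in TR and 7.86, 6.44 and 5.55 CPM in NR samples. It had the largest change of the 58 tested, at 1.83 ± 0.27 (SE) on the log2 scale (adjusted p = 9.73e-05, edgeR). The intermediate filament gene Nes was higher by 1.01 (adjusted p = 0.0128) at 10.5 to 15.1 CPM in TR and 5.07 to 9.06 CPM in NR samples. Its raw counts overlapped, at 29 to 35 in TR and 26 to 30 in the deeper NR samples. Nes did not pass without NR sample 2 or with downsampling to an equal depth (adjusted p = 0.0706 and 0.0671, edgeR). Osmr and Nes are also expressed by vascular cells. Serpina3n, a protease inhibitor, went the way of Gfap and fell by 0.64 (adjusted p = 0.0013), with 35.3 to 49.3 CPM in TR and 63.5 to 78.0 CPM in NR samples. Vim, the other filament gene, measured 42.3 to 72.8 CPM in TR and 36.0 to 61.3 CPM in NR samples and did not pass (adjusted p = 0.396).

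The summed levels of 10 genes of each other cell type place the astrocyte transcripts among the rest. The neuron list, led by the synaptic genes Snap25 and Syt1, summed to 4224 to 4587 CPM in TR and 3997 to 4409 CPM in NR samples. The astrocyte sum was 0.666 to 0.737 times this neuron sum in the 7 samples. The oligodendrocyte list, which includes the myelin gene Mbp, summed to 4370 to 5560 CPM in TR and 3865 to 4546 CPM in NR samples and thus exceeded the astrocyte sum in every sample. The microglia list, led by Ctss, lay lower, at 975 to 1073 CPM in TR and 984 to 1036 CPM in NR samples. No defining marker of these cell types was at 0 in all samples.

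The vascular lists differed most between groups. The 10 endothelial genes, led by Itm2a and Ly6c1, summed to 219 to 599 CPM in TR and 77.9 to 152 CPM in NR samples. Of the 10, 7 were called higher in TR, against 15.1% of all genes tested, with a median log2 fold change of 1.95. The 10 pericyte genes, led by Vtn and Cspg4, summed to 149 to 278 CPM in TR and 102 to 132 CPM in NR samples, and 6 of 10 were called higher, against the same 15.1%. The ratio of the astrocyte sum to the endothelial sum was therefore 5.20 to 13.8 in TR and 20.6 to 34.6 in NR samples. The part of vascular RNA in the changes of Gja1, Slc1a3, S100b and Glul was not tested.

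Ependymal and tanycyte genes, led by Crym and Col23a1, summed to 160 to 226 CPM in TR and 253 to 263 CPM in NR samples, without overlap between the groups. Of the 9 tested, 1 was called, against 30.0% of all genes tested. This was Crym, lower in TR, with a log2 fold change of -0.37 and an adjusted p of 0.0107 in edgeR. Crym made up much of the difference, with means of 115 ± 17.7 CPM in TR (SD, n = 4) and 155 ± 1.44 CPM in NR (SD, n = 3), while Mia and Rarres2 had positive changes of 0.50 and 0.15 that did not pass. Tanycytes and ependymal cells line the ventricle, and some express Gfap, Slc1a3 or S100b. Choroid plexus genes, led by Enpp2 and Ttr, summed to 850 to 1003 CPM in TR and 752 to 847 CPM in NR samples. Enpp2 alone measured 421 to 518 CPM in TR and 394 to 415 CPM in NR samples. Of the 10, 2 were called (Enpp2 and Ttr, higher in TR), against 30.0% of all genes tested. Whether these transcripts came from choroid plexus cells was not tested. Oligodendrocyte precursor genes, led by Olig1 and Sox10, summed to 439 to 494 CPM in TR and 496 to 510.2 CPM in NR samples. These genes went both ways, since 1 was called higher in TR (Vcan) and 2 lower (Sox10 and C1ql1), and 6 of the 10 had positive changes. The share called was 30%, against 30.0% of all genes tested. The part of these cells in the astrocyte transcripts was not tested.

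Across the 9 within-group sample pairs, the astrocyte sum moved in the same direction as the glycogen, metal and redox sum in 9 and as the oligodendrocyte sum in 8. It moved with the endothelial sum in 7, with the neuron sum in 6, with the microglia sum in 4 and with the reactive astrocyte and the ependymal sums in 3 each. TR sample 1 had the highest astrocyte and oligodendrocyte sums, and NR sample 3 the lowest astrocyte and endothelial sums.

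**Figure D5:**
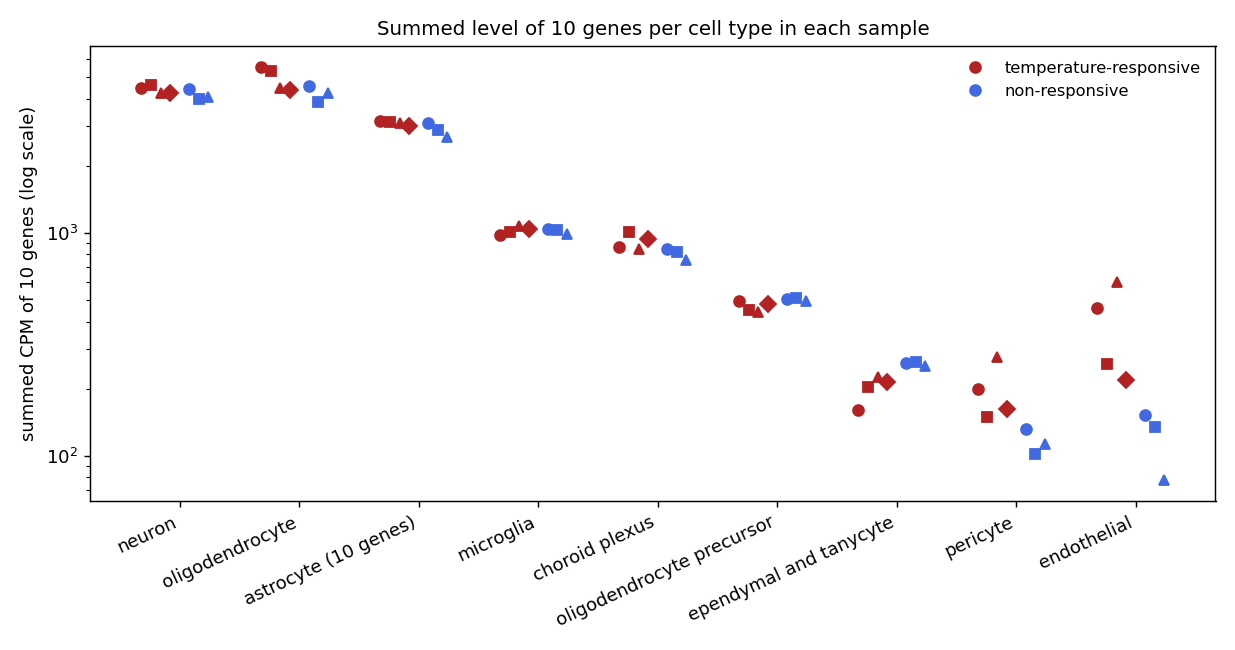
Summed CPM of 10 genes per cell type (vertical axis, log scale) in the 4 TR samples (red) and 3 NR samples (blue), with symbols for the sample number. The astrocyte sum stays between 2697 and 3164 CPM in all 7 samples, while the endothelial sum runs from 77.9 to 599 CPM.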

How the data were processed

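RNA from 7 samples was amplified with a SMART-seq v4 kit and made into Nextera XT libraries, which do not mark strand. The authors aligned reads to mm10 with STAR 2.6.0, removed duplicate reads with RmDup, counted reads per gene symbol with HTSeq 0.9.1 and deposited the raw counts, without normalization. Without molecular identifiers, duplicate removal can also discard distinct molecules of abundant or short genes. This can compress their differences or, where depth differs between groups as here, add to them. Its part in these results was not tested. The annotation, strand setting and overlap rule are not given in the sources used here.

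From the deposited counts, CPM was computed on each sample's total. Genes reaching 10 counts in 3 or more samples (14407) were tested with edgeR 4.0.16 (R 4.3.3; quasi-likelihood, robust, TMM, two-sided, no covariate, Benjamini-Hochberg, threshold 0.05). Standard errors were derived from the F statistic. Alternatives used DESeq2 1.42.0, limma 3.58.1 (voom), other scalings and filters, downsampling, a genes-detected covariate, a GC content offset (mgcv 1.9.3), the replicate number as a block, and leaving out each sample. The fit was also run on simulated counts in which few genes changed and no GC trend was built in. That run does not cover data with many calls and a GC trend, as here. Coordinates, exon length and GC content came from GENCODE M21 (mm10), in which 94.5% of symbols were found; promoters came from RefSeq (8 of the 10 transcripts matched). Samples of a group differed beyond counting noise (chi-square divided by its degrees of freedom, 2.00 to 5.13).

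The members and gene lists were chosen with earlier results of these data known. Named were all 10 members, up to 5 higher and 5 lower of the 60 other astrocyte genes with the largest changes among those called without overlap, and the 2 most abundant genes of each list; some of these are not reported here. Co-variation and list sums are descriptions without a test.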

Additional observations from a re-analysis of the deposited data

How the results depend on the processing

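The genes called (4327), the members called (5) and the other astrocyte genes called (25) fell to 1, 0 and 0 with genes detected as a covariate in edgeR, where 2062, 2 (Gfap and Gja1) and 17 had an unadjusted p under 0.05; genes detected differ between the groups without overlap. The members called were 3 with the GC content offset, and the genes called were 2741 with the block and this offset together. Leaving out 1 sample gave 2620 to 4583 genes, 3 to 6 members and 15 to 27 other astrocyte genes, lowest without NR sample 3 for the genes and members, and 16, 15 and 16 for the other astrocyte genes without TR sample 2, NR sample 2 and NR sample 3. Slc1a2 turned to -0.033 with library size only, -0.065 when every gene with a count was tested, -0.058 with the covariate, -0.117 with the GC content offset, -0.116 with the block and offset, and ran from -0.0099 to 0.087 with 1 sample left out (negative without NR sample 2); Sox9 turned to -0.093 and Slc6a11 to 0.038 with the covariate and Slc6a11 to 0.015 with the block and offset. Ndrg2, near 0 throughout, turned to 0.0056 with DESeq2 and with its size factors in edgeR, 0.063 with upper quartile scaling, 0.021 with 10 counts in every sample, 0.028 with downsampling, 0.0035 with the covariate, 0.021 with the GC content offset, 0.053 with the block and 0.093 with the block and offset, and ran from -0.064 to 0.066 with 1 sample left out. The cause was not tested. The replicate numbers did not pair the samples (correlations of deviations -0.128, -0.0618 and 0.0316); with the replicate block 4124 genes, 6 members and 27 other astrocyte genes were called. The share of all calls that were higher in TR was 50.3%, and 62.1% with upper quartile scaling, 40.9% with library size only and 36.9% with the GC content offset. Gfap, Slc1a3 and Gja1 lost their calls only with the covariate (adjusted p = 0.15, 0.67 and 0.179, edgeR), where Gfap was at -1.12 ± 0.30 (SE) and Gja1 at 0.57 ± 0.18, close to their main values with larger errors, and Slc1a3 fell from 0.45 to 0.18 ± 0.17. Downsampling to an equal depth gave 6 members called, with Aqp4 added (adjusted p = 0.0427, edgeR). It drew from counts made after duplicate removal, so it cannot undo a loss of reads that grew with depth. Lcn2 and Steap4 lay near the detection floor and were not tested.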

Other observations

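In the neuron, oligodendrocyte and microglia lists, genes also moved in both directions, and the genes named in this paragraph were chosen after their values were seen. Within the neuron list, Snap25 and Elavl4 were higher in TR by 0.50 and 0.38 on the log2 scale (adjusted p = 0.00391 and 0.00641, edgeR), whereas Rbfox3 and Nefl were at -0.38 and -0.37 (adjusted p = 0.00726 and 0.00512). The calls of Snap25 and Elavl4 were lost with the GC content offset, that of Elavl4 also without NR sample 3 and that of Nefl without NR sample 2. Within the oligodendrocyte list, Cldn11, Ermn and Mbp were higher in TR, at 0.74, 0.52 and 0.41, and Mobp was at -0.29 (adjusted p = 0.0214); Ermn lost its call with the GC content offset, and Mbp and Mobp in 6 and 8 of 19 alternatives, among them those without TR sample 2, NR sample 2 or NR sample 3. Within the microglia list, Aif1 was at 0.61 and Csf1r at -0.54 (adjusted p = 0.00197 and 0.00454). The metallothioneins Mt1 and Mt3, small metal-binding proteins abundant in astrocytes, were at 0.70 and 0.71 (adjusted p = 0.000915 and 0.00086), with 196 to 256 and 193 to 231 CPM in TR and 123 to 183 and 116 to 175 CPM in NR samples. Their relative Mt2 was at 0.24 (adjusted p = 0.144, edgeR). Raw counts of Mt1 overlapped between TR and NR samples (490 to 603 and 600 to 641), as did those of Cldn11 (473 to 561 and 558 to 618). Those of Mt3 were lower in TR, at 442 to 557 against 562 to 599 in NR samples. Whether these counts level off with depth was not tested. Olfactory receptor genes, which the brain is not known to use widely, summed to 328 to 797 CPM in TR and 46.2 to 252 CPM in NR samples.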
